A study of Homo sapiens and Mus musculus with 14 samples.

Results

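The genes CD274, PDCD1LG2, PLGRKT and JAK2 lie close together on the short arm of chromosome 9, and the accessible regions around them were described in peak lists of MDA-MB-436 cells, an established line of human breast adenocarcinoma. A peak was a member when it lay in 1 of these 4 gene bodies or within 50 kb of either end. The windows merged into 2 stretches of hg38, chr9:4934390-5179948 around JAK2 and chr9:5307971-5621282 from PLGRKT to PDCD1LG2, of 558.9 kb in all. They held 20 of 64806 control peaks, 16 of 39537 peaks of SMARCAL1 knockout clone 1 and 7 of 34572 peaks of SMARCAL1 knockout clone 2. The series holds 14 ATAC-seq libraries, an assay in which a transposase cuts accessible DNA. The 3 lists were merged by the authors from 3 control libraries and 3 clone 1 libraries of batch 1 and from 2 clone 2 libraries of batch 2. Control cells are SMARCAL1-proficient, and each knockout group is 1 clone, so the knockout cannot be told apart from other differences of that clone, nor in clone 2 from the batch. A further 6 libraries come from the mouse melanoma line B16F10, with Smarcal1 knocked out or reconstituted, and were not analysed here. With 1 list per group there is no replicate check and no p-value.

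CD274 encodes PD-L1 and PDCD1LG2 encodes PD-L2, the ligands through which cells engage the inhibitory receptor PD-1 on T cells. JAK2 encodes a tyrosine kinase of the interferon gamma receptor, whose signal induces PD-L1. PLGRKT encodes a plasminogen receptor and neighbours CD274 on the opposite strand. This stretch of chromosome 9 is gained as a block in some lymphomas and in some breast cancers, and its copy number was not examined here. The series asks how SMARCAL1, a DNA translocase of stalled replication forks, bears on innate immune signalling and PD-L1 expression.

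The control list was checked against markers of the line. Peaks within 1000 bp of a gene end were present in control at 6 of 6 mesenchymal genes, including VIM, SNAI2 and FN1, and at 4 of 11 breast epithelial genes, against 60.7% of all protein-coding genes. The 4 were EPCAM, which had one in all 3 lists, and KRT8, KRT18 and KRT17, which had one in control alone; KRT8 and KRT18 share 1 control peak score of 5.76 and overlap each other. KRT5, KRT14, ESR1 and GATA3 had no such peak in control. CDH1 had none in control and one in clone 1, with a score of 6.24. Of the mesenchymal genes, ZEB1 scored 5.05 in control and had no peak in clone 2. AXL scored 5.35 in control and had none in either clone. Of markers of other cells that can carry PD-L1, 2 of 7 leukocyte genes (CD14 and CD68), 0 of 2 endothelial genes and 1 of 2 fibroblast genes had one in control. A gene-end peak at CD14 was also in both clones, and clone 2 had one at PTPRC. Their part in the results below was not tested.

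The DNA before the annotated start of CD274 is shown because its interferon-type sequence motifs lie where the 3 lists differ in peak extent, and that before the first annotated start of JAK2 because it held none of the motifs searched. Both are 250 bases of RefSeq sequence (GRCh38.p14, plus strand) ending at the base before the start, chr9:5450292-5450541 for CD274 and chr9:4984140-4984389 for JAK2. Capitals mark matches.
CD274: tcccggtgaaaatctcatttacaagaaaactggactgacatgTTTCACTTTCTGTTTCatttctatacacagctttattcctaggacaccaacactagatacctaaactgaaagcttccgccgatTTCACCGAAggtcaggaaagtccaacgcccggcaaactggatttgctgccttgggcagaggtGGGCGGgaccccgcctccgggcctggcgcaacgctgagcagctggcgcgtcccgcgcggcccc
JAK2: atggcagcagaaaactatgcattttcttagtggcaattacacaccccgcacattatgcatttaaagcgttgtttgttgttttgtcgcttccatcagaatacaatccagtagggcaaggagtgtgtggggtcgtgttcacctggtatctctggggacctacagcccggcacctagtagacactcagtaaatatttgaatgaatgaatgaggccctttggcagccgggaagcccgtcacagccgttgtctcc

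Motifs were searched on both strands, spelled TGANTCA for AP-1, TGACGTCA for CRE, GAAA, any 2 bases and GAAA for the interferon response element core, TTCNNNGAA for STAT, GGGNNTTCC for NF-kB, CACGTG for the E-box and GGGCGG for the GC box. The CD274 stretch held 2 interferon response element cores on the minus strand that overlap each other, at 208 to 199 and 202 to 193 bases before the start. It also held 1 STAT motif at 125 to 117 bases and 1 GC box at 63 to 58 bases before the start. Over 22175 promoters of protein-coding genes the same 250 bases held the interferon core in 2.71%, the STAT motif in 5.92%, the GC box in 53.7% and the AP-1 motif in 5.34%. The CRE motif was in 2.02%, the NF-kB motif in 6.48% and the E-box in 7.38% of them. AP-1, CRE, NF-kB and E-box letters were not in the CD274 stretch. Of the motifs searched before the other JAK2 starts in the same region, 1 GC box lay at 138 to 133 bases before the start at 4985272, inside the JAK2 start peak of all 3 lists. The 250 bases before the JAK2 starts at 4985086 and 5041532, and before the PLGRKT start, also held none of the motifs searched. A match is a description of the letters and shows no binding.

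At the CD274 start a peak was called in each list (chr9:5450318-5450905 in control, chr9:5450258-5450976 in clone 1 and chr9:5450422-5450704 in clone 2). Its width was 588 bp, 719 bp and 283 bp, against list medians of 399 bp, 453 bp and 200 bp. The control peak covered 224 of the 250 bases shown above, the clone 1 peak all 250, and the clone 2 peak 120. Both interferon cores lay inside the control and clone 1 peaks and outside the narrower clone 2 peak, and the STAT motif lay across the left edge of the clone 2 peak. The GC box lay inside all 3. Clone 2 peaks were narrow across the whole list, and what sets the edges was not tested.

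The other 3 genes also had a start peak in every list, taken as the strongest peak within 1000 bp of an annotated start. For PDCD1LG2, which had no promoter entry, the annotated left end of the gene was used in place of a start. The JAK2 peak spanned chr9:4984293-4985777 in control (1485 bp), chr9:4984401-4985839 in clone 1 (1439 bp) and chr9:4984532-4985358 in clone 2 (827 bp). RefSeq gives JAK2 starts at 4984390, 4985086 and 4985272 here. The control peak covered all 3 of them, and the clone 1 and clone 2 peaks the later 2, clone 1 beginning 11 bp after the first. Of the JAK2 stretch shown above, 97 bases lay in the control peak and 0 in either clone peak. The 250 bases before each of the starts at 4985086 and 4985272 lay wholly inside the peak of all 3 lists. The PLGRKT peak was 975 bp wide in control (chr9:5437156-5438130), 820 bp in clone 1 and 336 bp in clone 2, and covered the start at 5437925 in each list. The PDCD1LG2 peak lay to the left of the gene (left end 5510531) in every list and overlapped none of it. The peak ended 0.356 kb before the gene in control (chr9:5509407-5510175, 769 bp), 0.398 kb in clone 1 (613 bp) and 0.591 kb in clone 2 (373 bp). It lies inside INCR1, a long non-coding RNA gene that spans PDCD1LG2.

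**Figure D1:**
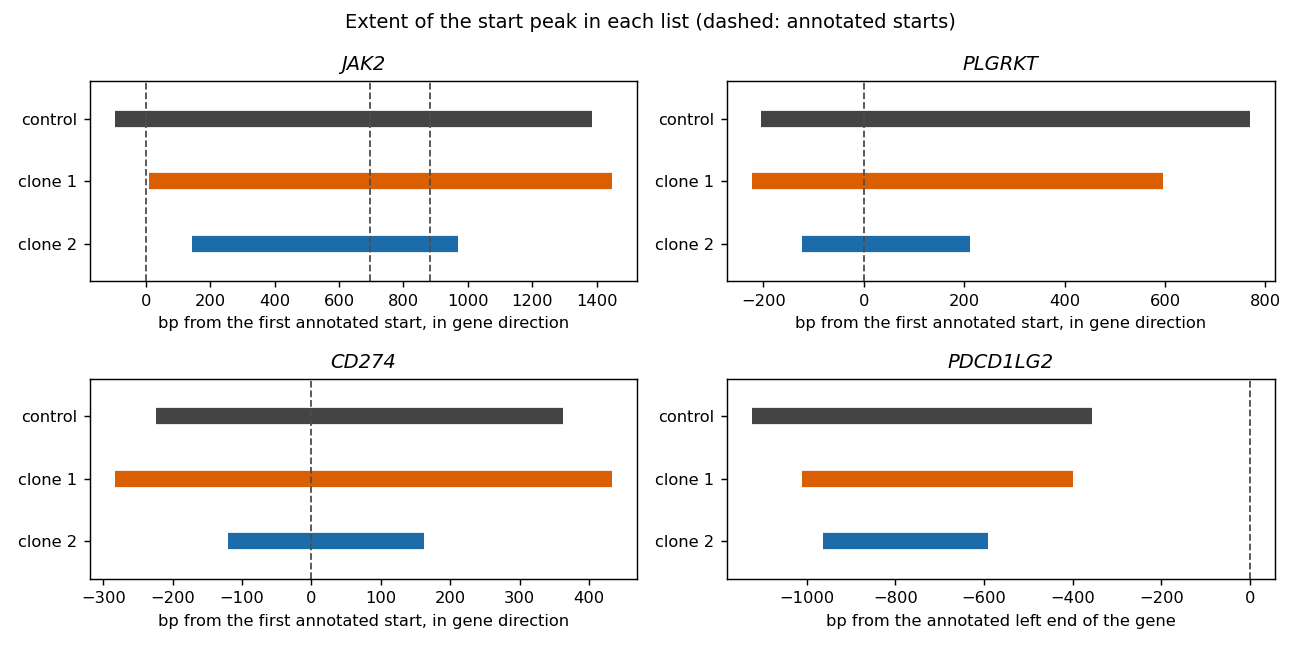
Extent of the start peak of each gene in the 3 lists, in bp from the first annotated start in gene direction (for PDCD1LG2 from the annotated left end); dashed lines are annotated starts. At CD274 the clone 2 peak is 283 bp wide and the clone 1 peak 719 bp, and at PDCD1LG2 no peak reaches the gene.

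The score deposited with each peak is taken to be the authors' −log10 p, which depends on depth and call settings. Each score was therefore read within its own list. In control the order of the start peaks was JAK2 at 20.4, PLGRKT at 18.5, PDCD1LG2 at 16.7 and CD274 at 15.4. They lay above 97.4%, 96.4%, 94.8% and 93.4% of control peaks. In clone 1 the order was JAK2 at 12.1, CD274 at 9.51, PLGRKT at 8.96 and PDCD1LG2 at 6.66, above 95.3%, 88.5%, 86.2% and 62.6% of that list. In clone 2 it was PLGRKT at 25.3, CD274 at 19.5, PDCD1LG2 at 17.9 and JAK2 at 15.8, above 96.5%, 90.2%, 87.2% and 81.2%. JAK2 was first of the 4 genes in both batch 1 lists and last in clone 2, while PDCD1LG2 was last in clone 1. Lists of different length and depth give different percentiles, so these orders do not by themselves show a change.

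**Figure D2:**
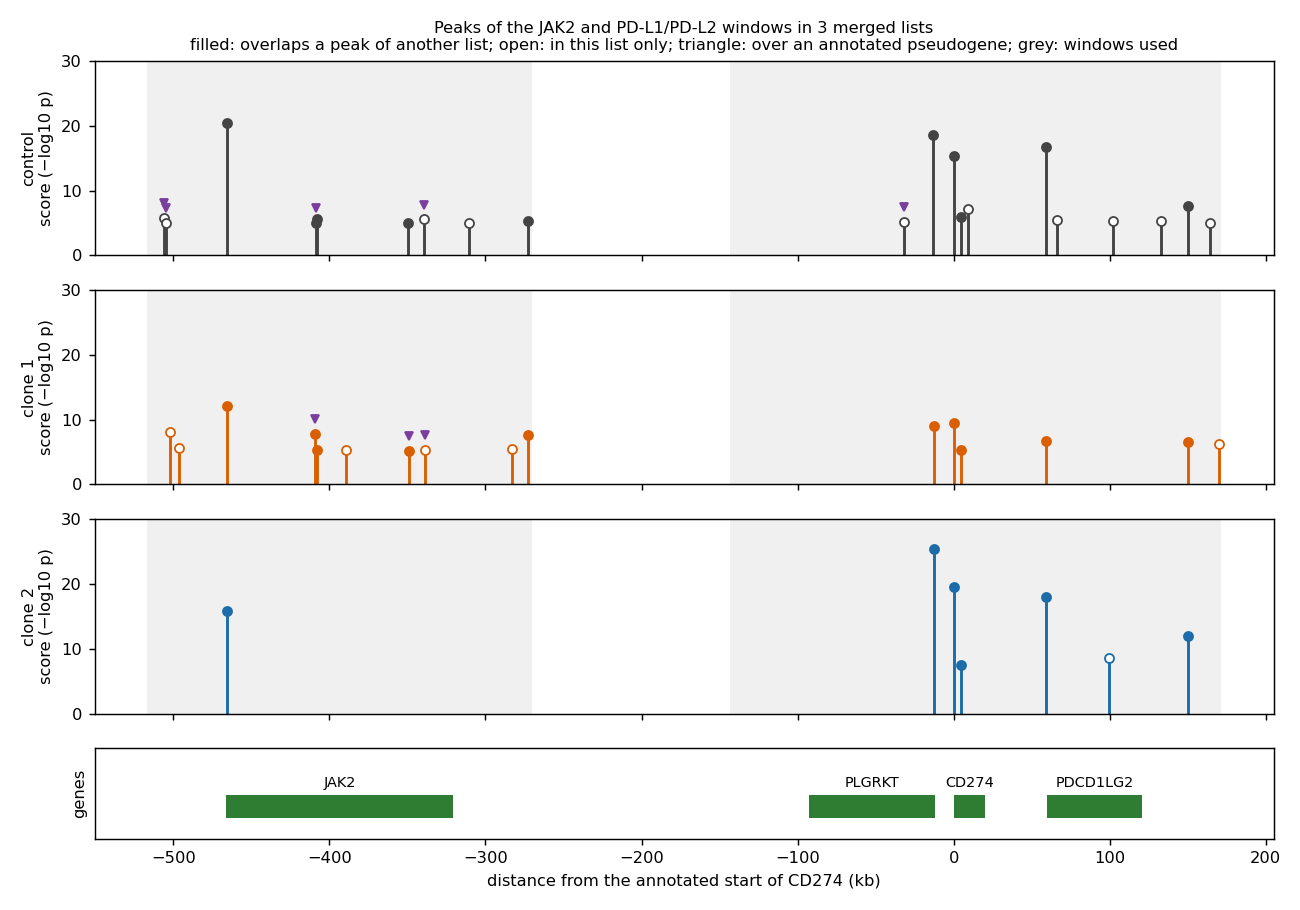
Score (−log10 p) of each peak in the 4 gene windows, by distance in kb from the CD274 start, in control, clone 1 and clone 2; green bars are gene bodies, and peaks between the grey windows are not drawn. The 4 start peaks stand above the other peaks in control, and the JAK2 window holds 9 control, 10 clone 1 and 1 clone 2 peaks.

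To read the start peaks against the rest of the genome, each was compared with control peaks scoring within 10% of it in control and found in the clone, that is, overlapped by a clone peak by at least 1 bp. Nearly all such peaks were found: 98.7% to 99.9% in clone 1 and 98.6% to 99.4% in clone 2. Presence in a clone was thus usual at these scores.

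Where the clone scores fell among those of like-score peaks differed by gene. CD274 was in the upper part in both clones. Its clone 1 score of 9.51 was above 64.3% of 2400 such peaks (median 8.71, middle 50% from 7.45 to 10.2). Its clone 2 score of 19.5 was above 76.3% of 2397 (median 16.02, 13.2 to 19.3).

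PDCD1LG2 stood low in clone 1. Its score of 6.66 was above 7.80% of 2103 like-score peaks (median 9.30, middle 50% from 7.87 to 10.9). In clone 2 its score of 17.9 was above 57.6% of 2089 (median 17.1). Judged by their decimals, both its control and clone 1 scores are means over at least 3 merged calls, and its clone 2 score is not recognisable as a mean. The CD274 and PLGRKT scores were not recognisable as means in control and clone 1. In clone 2 they were means over at least 2 calls. PLGRKT, the neighbour of CD274, was above 28.3% of 1666 like-score peaks in clone 1 and above 87.8% of 1651 in clone 2. The 2 clones thus placed it on opposite sides of the like-score median, which was 10.2 in clone 1 and 18.8 in clone 2.

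JAK2 stood low in clone 2 and not in clone 1. Its clone 2 score of 15.8 was above 14.9% of 1282 like-score peaks (median 20.9, middle 50% from 17.6 to 24.4). Its clone 1 score of 12.1 was above 66.1% of 1289 (median 11.1). Judged by their decimals, the JAK2 scores are means over at least 3 merged calls in control, 4 in clone 1 and 2 in clone 2. PDCD1LG2 in clone 1, and JAK2 and PLGRKT in clone 2, were outside the middle 50% of like-score peaks, and so, by a small margin, was CD274 in clone 2. No gene was outside it on the same side in both clones. Limited to peaks of like score and width within 25%, the positions were 76.5% and 72.8% for CD274 in clones 1 and 2, 10.1% and 58.4% for PDCD1LG2, 26.3% and 89.4% for PLGRKT, and 53.9% and 16.01% for JAK2. Limited to like-score peaks within 1000 bp of a gene end, they were 56.2% and 82.4% for CD274, 2.92% and 64.1% for PDCD1LG2, 21.02% and 91.1% for PLGRKT, and 58.5% and 18.004% for JAK2.

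**Figure D3:**
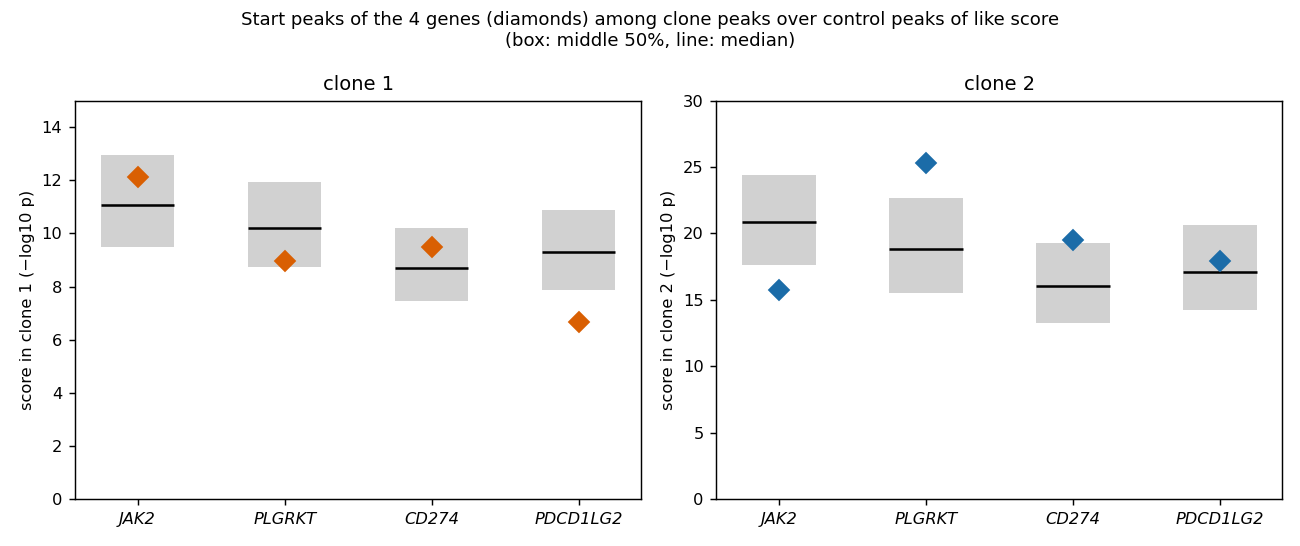
Scores (−log10 p) of the 4 start peaks in each clone (diamonds) beside the clone scores of peaks over control peaks of like score (box, middle 50%; line, median). The PDCD1LG2 diamond lies below its box in clone 1 at 6.66, and the JAK2 diamond below its box in clone 2 at 15.8.

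Away from the start peaks the windows held weaker peaks, 16 of the 20 in control, with scores from 5.01 to 7.66 against a control list median of 6.26. The strongest was chr9:5600396-5600775, 89.9 kb downstream of the PDCD1LG2 left end and inside INCR1. Each list held it, scoring 7.66 in control, 6.54 in clone 1 and 11.99 in clone 2. Of control peaks of like score 53.6% were found in clone 1 and 58.4% in clone 2. Its clone scores stood above 64.0% and 71.1% of those of like-score peaks.

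Inside CD274, 4.77 kb downstream of the start, the peak at chr9:5455316-5455499 was found in both clones, as were 9.15% of 20278 control peaks of like score. In neither clone was it strong for such a peak: 5.35 in clone 1 stood above 27.1%, and 7.46 in clone 2 above 12.1%, of the clone scores of like-score peaks. The peak 8.82 kb downstream of the start, chr9:5459366-5459591, scored 7.20 in control as a mean over at least 3 merged calls and was found in neither clone. Of 10994 control peaks of like score, 36.4% were found in neither. The gene table gives gene ends and no exons, so exon and intron were not told apart.

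In the PDCD1LG2 body, the control peaks at chr9:5516447-5516701 (score 5.44) and chr9:5552820-5552986 (5.30) were found in neither clone, as were 76.5% and 78.0% of like-score peaks. Clone 2 had a peak of its own there, chr9:5550034-5550168, with a score of 8.52, that is 39.5 kb into the gene. Of clone 2 peaks of like score 17.7% were absent in control. Beyond the gene, chr9:5583073-5583633 (5.38, a mean over at least 3 merged calls) and chr9:5614615-5614799 (5.06) were in control alone. Clone 1 alone had chr9:5620039-5620671 with a score of 6.19, and 34.2% of clone 1 peaks of like score were absent in control. In PLGRKT, chr9:5418485-5418684 (5.19) was in control alone and lies over the pseudogene RNF152P1.

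The JAK2 body and its flanks held 9 peaks besides the start peak in clone 1 and 0 in clone 2. Of 9 control peaks there, clone 1 had 5 and clone 2 had 1, the start peak, where like-score peaks would give 2.20 and 2.05, and peaks of like score and width 2.22 and 2.01. The 4 weak control peaks found in clone 1 lay 57.0, 58.0, 117 and 193 kb downstream of the first JAK2 start, with control scores of 5.03, 5.70, 5.01 and 5.36. Their clone 1 scores were 7.77, 5.29, 5.19 and 7.64. Those of 7.77 and 7.64 stood above 92.8% and 91.7% of the clone 1 scores of like-score peaks, and those of 5.29 and 5.19 above 24.7% and 14.2%. The last of these peaks (chr9:5177517-5177911) is outside JAK2, in INSL6, a relaxin-family gene whose annotated body overlaps JAK2. The peak at 57.0 kb lies over the pseudogene CSNK1G2P1, which ends at 5042125, and the peak at 58.0 kb begins at 5042414. The peak at 117 kb begins at 5101028, beside the pseudogene MTCO3P11, which ends at 5101009. The clone 1 peak found there overlaps MTCO3P11.

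Clone 1 also had 5 peaks in the JAK2 window that control lacked, where clone 1 peaks of like score would give 3.36. The strongest, chr9:4948013-4948293, lay 36.1 kb upstream of JAK2 with a score of 8.10, and 6.63% of 5340 clone 1 peaks of like score were absent in control. The other 4 scored 5.27 to 5.61, where 48.1% to 53.1% were absent. Neither the control nor the clone 2 list had a peak over any of the 5. The 1 at chr9:5111402-5112321 began within 200 bp of the control peak over the pseudogene TCF3P1, and when such neighbours counted as found, the 6 clone 1 peaks absent in control over all windows became 5.

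Among 9169 protein-coding genes with at least 5 control peaks in the body plus 50 kb, the ratio of peaks found in clone 1 to those predicted from score deciles had a median of 1.05, with the middle 50% from 0.808 to 1.302. JAK2 had 2.39, above 98.8% of the genes. CD274 had 0.996, PDCD1LG2 0.955 and PLGRKT 1.05. In clone 2 the median was 0.933, and JAK2 had 0.502, above 15.7% of genes, while CD274 had 1.00, PDCD1LG2 0.993 and PLGRKT 1.04. Counts of 5 to 9 peaks make these ratios coarse, and JAK2 was picked out among the 4 after its values were seen. The first 10 Mb of chromosome 9 had 1.03 in clone 1 and 1.14 in clone 2 over 229 control peaks.

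Several weak peaks of the JAK2 window lay over pseudogenes, copies whose reads can be placed wrongly. Of 20 control peaks in all windows, 5 overlapped an annotated pseudogene, against 2.18% of control peaks on the main chromosomes; pseudogenes cover 3.71% of the bases of the windows and 7.53% of the JAK2 window. They were HNRNPA1P41 with 2 control peaks, CSNK1G2P1, TCF3P1 and RNF152P1. Clone 1 had peaks over CSNK1G2P1, TCF3P1 and the mitochondrial copy MTCO3P11, and clone 2 had 0 such peaks of 7. An annotated JAK2 start at 5041532 falls inside CSNK1G2P1, so the peak there, chr9:5041415-5042206 in control, is uncertain as a JAK2 feature. With peaks over pseudogenes left out of control and clones, clone 1 had 3 of 5 control peaks of the JAK2 window and clone 2 had 1, with 1.577 and 1.5002 for like-score peaks. How the authors treated reads with several placements is not given in the sources used here.

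Of the weak control peaks, 4 carried the score that a whole-number pileup gives in what is taken as 1 library. The settings of the peak caller were not given, so the read counts that follow are fitted values. On this fit the peaks at chr9:4945500-4945626 and chr9:5140199-5140325 would each stand for 11 overlapping reads against a background of 2.02. The peak at chr9:5614615-5614799 would stand for 11 against 2.01, and chr9:4944581-4944732 for 12 against 2.01. Neither clone had any of these 4, and of control peaks of like score 65.8% to 80.2% were found in neither. Among the clone 1 peaks absent in control, chr9:5061091-5061250 carried such a score too, fitted as 11 reads against 1.91. Of the 20 control peaks 6 had scores recognisable as means over several calls, and 3 of these were found in clone 1 and 2 in clone 2, with 2.86 and 2.84 for like-score peaks.

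Over all 20 control peaks, 10 were found in clone 1 (exact Clopper-Pearson 95% interval 27.2% to 72.8%) and 6 in clone 2 (11.9% to 54.3%), against 42.1% and 42.9% of all control peaks. Found in both were 6, against 31.7% of all, and in neither 10, against 46.7%. Control peaks of like score predict 7.09, 6.91, 5.27 and 11.3 for these counts. From PLGRKT to PDCD1LG2 both clones had the same 5 of 11 control peaks, where like-score peaks would give 4.88 and 4.86, and 3.91 for both. Of 16 clone 1 peaks 6 were absent in control, against 30.7% of that list, with 4.76 for like-score peaks. Of 7 clone 2 peaks 1 was absent, against 11.1%, with 0.530. The like-score shares over the 20 peaks were 35.4% in clone 1 and 34.5% in clone 2. The intervals take no account of spread between libraries and treat all peaks as equally likely to be found. Like-score shares of single peaks in clone 1 ranged from 12.2% to 99.9%, so the intervals do not test a difference.

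**Figure D4:**
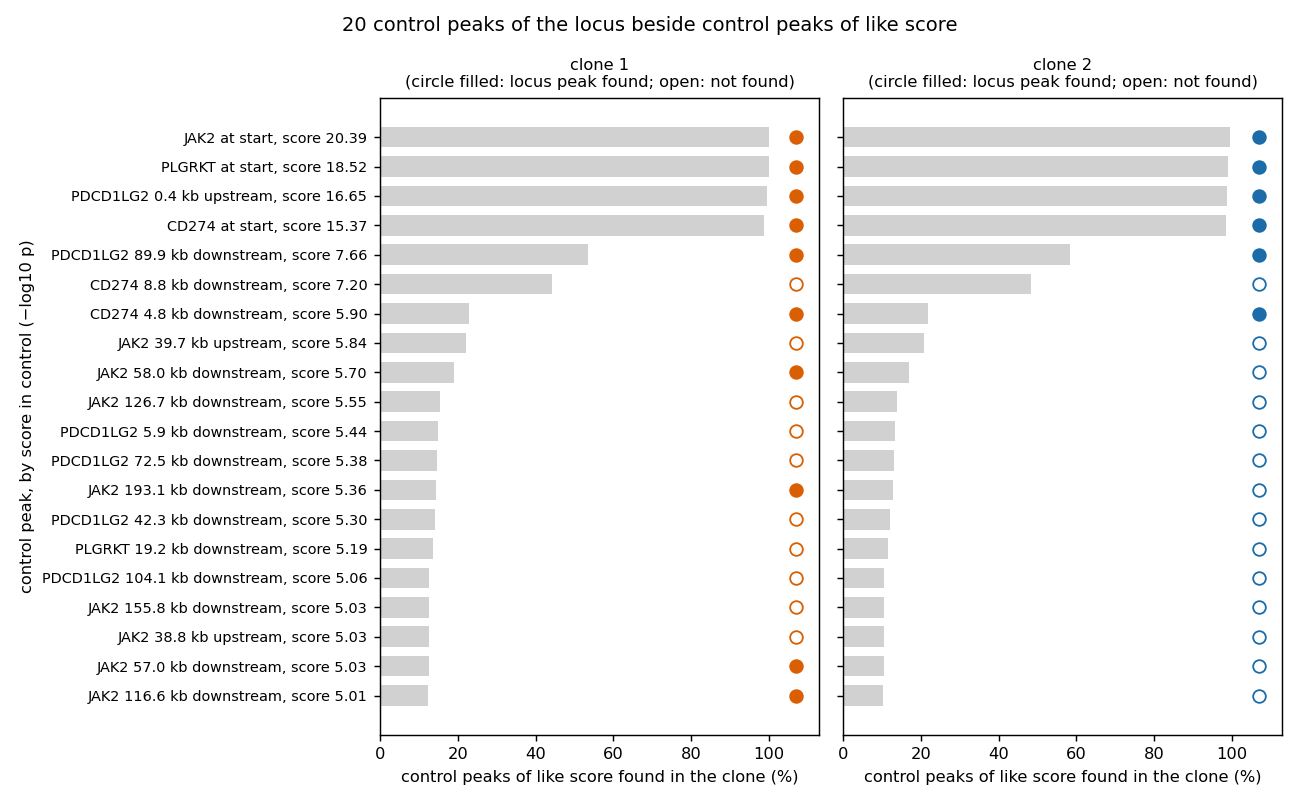
Share (%) of control peaks of like score found in each clone (bars) for the 20 control peaks of the windows, ordered by control score (−log10 p); filled circles mark locus peaks found in the clone. The 4 start peaks are found in both clones, and 4 weak JAK2-window peaks are found in clone 1 where the bars are between 12.2% and 19.0%.

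Genes that act with these were read through the presence of a gene-end peak, within 1000 bp of either gene end. Of 39 JAK-STAT genes and PD-L1 regulators, 35 had one in control, 30 in clone 1 and 25 in clone 2, against 60.7%, 50.2% and 43.0% of all protein-coding genes. Of the 35, 6 had none in clone 1 (21.1% over all genes with a control peak), 10 none in clone 2 (30.1%) and 4 none in either (15.9%). The 39 include JAK2 itself and SMARCAL1, each with a peak in all 3 lists. No gene of the list had a peak in both clones and not in control (0.559% over all genes without one).

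The kinase partner JAK1 and the transducers STAT2 and STAT3 had peaks in all 3 lists, as did the receptor genes IFNGR1, IFNAR1, IFNAR2 and IL6ST. IFNGR1, the ligand-binding chain of the interferon gamma receptor, had a peak above 91.5% of the control list, 61.2% of the clone 1 list and 67.5% of the clone 2 list. For the interferon-induced activator IRF1 these were 83.5%, 68.7% and 22.4%, and for the feedback inhibitor SOCS1 84.8%, 63.2% and 44.1%. For IL6ST they were 98.8%, 98.3% and 93.8%, and for STAT3 73.2%, 76.7% and 12.4%. These percentiles were not set beside peaks of like score. Lists of different length give different percentiles, so they do not by themselves show a change. The PD-L1 protein stabilisers CMTM6 and CMTM4 also had peaks in each list. The 4 genes with none in either clone were STAT6 (control score 5.31), IFNGR2, the second chain of the interferon gamma receptor (5.86), PIAS1, an inhibitor of the pathway (5.15), and JUNB of the AP-1 family (7.35). TYK2 and BATF3 had none in clone 1, and IRF2, PTPN11, FOS, FOSL1, FOSL2 and RELA none in clone 2. JAK3, STAT5A and STAT5B had none in any list.

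In the B7 family, to which both PD-1 ligands belong, 4 of 8 other genes had a control gene-end peak, against 60.7% of all protein-coding genes. NCR3LG1 and VSIR had one in all 3 lists, and CD276 and HHLA2, with control scores of 5.51 and 5.03, in neither clone, as did 15.9% of all genes with a control peak. CD80, CD86, ICOSLG and VTCN1 had none in control. All 4 genes of the windows had one in each list, as did 7877 of 20037 protein-coding genes.

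By distance over the 3 score percentiles, the genes nearest to CD274 among those 7877 were HS2ST1 and SELENOF, with equal scores in each list, then MAST4, CLINT1 and NUDT12, at 0.801 to 1.56 percentile points. Those nearest to JAK2 were ANKRD18A, the pair DPH3 and OXNAD1 with equal scores in each list, HRH1 and DHX9, at 0.605 to 1.12 points. This likeness rests on 3 lists and describes peak strength alone.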

How the data were processed

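ATAC-seq peak lists of 3 groups of MDA-MB-436 cells were used. Per the labels, the authors merged the peaks of the replicates into 1 list per group. HISAT2, MACS2 and ChIPseeker and the build hg38 are named in the submitters' processing notes; their versions and settings were not given in the sources used here, and read totals were not used. The deposited score is read as −log10 p of the authors' peak caller, since its most frequent values equal Poisson tails at whole pileups and none is under 5. A score was taken as a mean over merged calls where its decimals exceed those of 1 call.

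From these files, coordinates were counted from 1, and overlaps of at least 1 bp, ranks, and shares among peaks scoring within 10% were computed with Python 3.11.15, numpy 2.4.6 and scipy 1.17.1. Code was tested on simulated lists. Gene positions, starts and sequences came from RefSeq tables (GRCh38.p14), which held no promoter entry for PDCD1LG2. The named genes were the 4 members, every peak in their windows, list genes by presence or absence, and the 5 genes nearest to CD274 and to JAK2 in percentile. Members and lists were chosen with earlier results of these data known. Alternatives for overlap, threshold, flank, score band and gene-end distance were tried. A result on 1 gene of the pathway list is not reported here.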

Additional observations from a re-analysis of the deposited data

How the results depend on the processing

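Of the 20 control peaks, the 10 found in clone 1 became 5 of 6 above the control median score and 5 of 6 with lists of equal length, and 3 of 6 among recognisable means. The 6 found in clone 2, and the 6 found in both, became 2 of 20 when at least 50% of the control peak had to be covered, since clone 2 peaks are narrow, and 2 of 6 among recognisable means. The 10 of 20 found in neither became 1 of 6 under each of the first 2 settings and 3 of 6 among means. They became 5 of 13 with 10 kb on each side. Without control peaks over pseudogenes they became 6 of 15, and 7 of 15 when such peaks were left out of the clones too. Each of these settings but the overlap rule leaves fewer peaks. Clone 1 peaks absent in control numbered 6 of 16, and 2 of 9 above the clone median. With 10 kb on each side they numbered 2 of 10, and with 100 kb 11 of 25. Over the whole clone 1 list, at any score, 30.7% were absent in control. The 1 of 7 clone 2 peaks absent in control became 0 of 5 above the clone 2 median. In the JAK2 window the 5 found in clone 1 became 1 of 1 under either of these threshold settings and 3 of 5 with peaks over pseudogenes left out of control and clones, and the 1 found in clone 2 became 2 of 14 with 100 kb on each side. The counts predicted by like-score peaks stayed within 1.5 times under every band tried.

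The CD274 start peak stood above 84.2%, 78.7% and 87.3% of gene-end peaks in control, clone 1 and clone 2, and above 87.7% and 86.8% in control and clone 1 with lists of equal length. For JAK2 these were 93.5%, 90.6% and 77.7%, and 95.1% and 94.6%. Of 35 pathway genes at which control had a gene-end peak, neither clone had one at 4. These 4 of 35 became 2 of 36 within 3000 bp and 2 of 30 with lists of equal length. Within 1000 bp of an annotated start they became 2 of 27. Shares over all protein-coding genes under these 3 settings are not given, so the smaller counts cannot be set beside a background. Among like-score peaks, PDCD1LG2 in clone 1 ranged from 2.92% to 10.2% and JAK2 in clone 2 from 12.8% to 20.8% over the bands and subsets tried. Alternatives on pseudogenes, means, annotated starts, the JAK2 window and the like-score positions were chosen after seeing the data. No paired analysis was possible because each group is 1 merged list with no replicate columns, and no replicate could be left out for the same reason. Of control peaks scoring like the one at 5.03, 12.5% were found in clone 1, so absence of a weak peak cannot be told apart from a missed call; read depth was not used.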
